A study of Mus musculus with 24 samples.

Results

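The response of macrophage chromatin to interleukin 4 (IL4) in the absence of the coregulator GRIP1 was measured by ATAC-seq, an assay of DNA open to a transposase. It was taken as the comparison of the 4 GRIP1 knockout (KO) IL4 libraries with the 4 KO vehicle libraries, which are 8 of the 24 libraries of the series, at the 130103 of 144411 counted peaks that passed a filter on low counts. The macrophages were grown for 5 days from the bone marrow of male mice of 8 to 10 weeks, in medium with L-cell conditioned medium. KO IL4 and KO vehicle cells carried floxed GRIP1 alleles with 2 copies of LysM-Cre on a C57BL/6 background (C57BL/6, LysM-Cre+/+; GRIP1fl/fl). Wild-type (WT) IL4 and WT vehicle cells, used here for comparison, also carried LysM-Cre+/+ but had GRIP1wt/wt, so the Cre was present in each group described. LysM-Cre acts in myeloid cells, and deletion by it need not reach every cell of a culture. IL4 was given at 10 ng/ml. KO dexamethasone libraries, cited for a few peaks, had the same genotype as the other KO groups and 100 nM of the glucocorticoid. A time of 24 h stands in all titles, but vehicle treatment is labelled 25 h. It is not stated whether replicates were different mice or cultures, and the spread behind each p-value may therefore be technical.

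IL4 binds a receptor built on the IL4R alpha chain, the receptor-bound JAK kinases phosphorylate STAT6, and STAT6 dimers bind DNA at sites with TTC and GAA held 4 bases apart. In macrophages this sets off alternative activation, with arginine metabolism, lectins, lipid uptake and repair genes as its known outputs and SOCS-box proteins as its brakes. GRIP1, encoded by Ncoa2, is a p160 coregulator known as a partner of the glucocorticoid receptor and of KLF4.

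Peaks open at promoters gave the sequences to set beside the response. Of the 12 promoter peaks with the smallest p (6 in each direction, within 1 kb of a transcription start site, TSS), 4 are shown because the window of 250 bases before the start holds one of the motifs searched. Sequences are from RefSeq (GRCm38.p6, the mm10 assembly), written 5′ to 3′ on the strand of the gene, with motif matches in capitals. Itgax (chr7:128129300-128129549, plus strand) and Tmem26 (chr10:68723496-68723745, plus strand) had promoter peaks that were higher with IL4. Phf19 (chr2:34913977-34914226, minus strand) and Nab1 (chr1:52500449-52500698, minus strand) had promoter peaks that were lower.
Itgax: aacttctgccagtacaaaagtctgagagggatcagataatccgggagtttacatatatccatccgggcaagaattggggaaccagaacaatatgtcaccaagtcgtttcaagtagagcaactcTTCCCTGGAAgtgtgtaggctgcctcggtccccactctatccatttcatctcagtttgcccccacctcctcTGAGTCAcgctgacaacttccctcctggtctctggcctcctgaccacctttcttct
Tmem26: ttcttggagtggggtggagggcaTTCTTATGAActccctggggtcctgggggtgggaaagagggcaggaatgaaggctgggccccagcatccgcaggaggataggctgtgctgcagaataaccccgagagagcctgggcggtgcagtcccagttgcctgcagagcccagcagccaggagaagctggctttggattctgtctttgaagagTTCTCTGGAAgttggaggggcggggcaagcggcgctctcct
Phf19: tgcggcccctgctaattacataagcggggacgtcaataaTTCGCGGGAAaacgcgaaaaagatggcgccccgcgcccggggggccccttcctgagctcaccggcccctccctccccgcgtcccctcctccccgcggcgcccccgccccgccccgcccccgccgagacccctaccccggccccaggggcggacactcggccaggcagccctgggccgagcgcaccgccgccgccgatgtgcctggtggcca
Nab1: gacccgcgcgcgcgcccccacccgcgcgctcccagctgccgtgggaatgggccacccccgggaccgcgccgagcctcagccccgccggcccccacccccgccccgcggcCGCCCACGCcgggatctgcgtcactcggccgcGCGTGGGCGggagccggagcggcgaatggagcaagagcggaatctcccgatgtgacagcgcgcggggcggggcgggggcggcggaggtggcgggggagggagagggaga

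The capitals in Itgax mark a STAT6-type match (TTC and GAA with 4 bases of any kind between) 127 to 118 bases before the start and an AP-1 match (TGANTCA) 56 to 50 bases before it. Tmem26 has STAT6-type matches at 227 to 218 and at 41 to 32 bases before its start, and Phf19 has a STAT6-type match at 211 to 202. In Nab1, whose product is a corepressor of EGR factors, they mark EGR matches (GCGTGGGCG) 141 to 133 bases before the start, on the opposite strand, and 109 to 101 bases before it. Also searched, on both strands, were TTCNNNGAA (STAT type), GAGGAAGT (PU.1), GTGGGCG (the core inside the EGR motif) and the NF-kB motif. The STAT6-type motif reads alike on both strands. The windows of Klrb1a, Bnip3, Icosl and Trim59 held none of these letters. No window was matched for Slc7a2, Atp6v0d2, Lgi4 and Nfkbiz, the other 4 of the 12, so they were not searched.

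Over all 32851 RefSeq promoter windows, 5.85% held the STAT6-type motif, 6.75% TGANTCA and 7.02% GTGGGCG. A window overlapped by a promoter peak was found for 8117 of 11659 genes with such a peak. By their leading promoter peak, 704 of these 11659 genes were higher, 4659 lower and 6296 not called. Windows were thus matched for a smaller share of the higher ones, and the effect of this on the shares was not tested. The STAT6-type motif was in 36 of 328 windows (11%) whose peak was higher with IL4 in KO cells, in 132 of 3535 (3.73%) whose peak was lower and in 209 of 4254 (4.91%) whose peak was not called. Where the promoter peak was at least 2-fold higher it was in 13 of 64 windows (20.3%). TGANTCA was in 11% of windows with a higher peak, 4.30% with a lower peak and 5.27% with an uncalled peak. The EGR core GTGGGCG was in 12.2% of windows with a higher peak, 16.3% with a lower peak and 10.4% with an uncalled peak. The full EGR motif did not follow its core: it was in 9 of 328 windows with a higher peak (2.74%), 44 of 3535 with a lower peak (1.24%) and 36 of 4254 with an uncalled peak (0.846%). The PU.1 motif was in 6.40% of windows with a higher peak, 2.89% with a lower peak and 2.63% with an uncalled peak. Base composition moved with these shares: the median window was 54.0% G or C with 5 CpG where the peak was higher, 61.6% with 18 CpG where it was lower and 59.6% with 14 CpG where it was not called. The part of base composition in the shares was not tested.

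KO macrophages responded to IL4 at 31.0% of the tested peaks. Accessibility rose at 22160 peaks (17.0%) and fell at 18113 (13.9%), each called by edgeR's quasi-likelihood F test at a Benjamini-Hochberg adjusted p below 0.05. Rises were larger than falls: the median log2 fold change (KO IL4 over KO vehicle) was 0.89 over rises and -0.44 over falls. At least 2-fold changes were 9257 higher (7.12% of tested peaks) and 1392 lower (1.07%), and at least 4-fold changes 1236 higher and 57 lower. Of 16605 genes with a tested peak, 8117 had a peak that rose and 8406 a peak that fell, and 4306 had both. Peaks were tied to the nearest TSS, which does not show which gene a peak controls, and in a bulk sample a change in the share of cells that are open cannot be told apart from a change in each cell.

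The KO IL4 libraries held 9863997 to 12975023 counts in peaks and the KO vehicle libraries 7552327 to 14089351. Libraries of a group correlated at 0.962 to 0.971 in KO IL4 and 0.954 to 0.970 in KO vehicle. The first principal component of the 8 libraries, with 49.3% of the variance, separated KO IL4 (87.8 to 109) from KO vehicle (-105 to -81.4). KO vehicle replicate 1 stood apart on the second component (-105, 11.3% of the variance) and KO vehicle replicate 3 on the third (-101, 10.7%). Without replicate 1 the calls were 21141 higher and 17671 lower, and without replicate 3 they were 20839 and 16659. Promoter peaks were present for 10 of 10 macrophage markers, averaging 5.43 to 58.0 CPM with IL4 and 6.05 to 65.9 CPM with vehicle (CPM are counts scaled by TMM to library size). They were present for 7 of 10 neutrophil, 6 of 10 dendritic cell, 3 of 7 B cell, 3 of 11 T and NK cell, 2 of 8 fibroblast, 2 of 8 mast cell and 4 of 9 erythroid markers. The B cell ones averaged 1.32 to 2.32 CPM with IL4 and 1.60 to 2.89 CPM with vehicle. Over all peaks with a gene 18.1% rose with IL4 and 14.6% fell. Counting all peaks of the marker genes, 10 of 79 macrophage marker peaks rose with IL4 and 21 fell (12 and 13 with loess offsets). The same counts were 12 and 3 of 57 for neutrophil, 15 and 12 of 93 for dendritic cell, 1 and 4 of 25 for B cell, 9 and 10 of 54 for T and NK cell, 6 and 2 of 27 for fibroblast, 9 and 1 of 29 for mast cell and 13 and 4 of 32 for erythroid markers. The part of other cell types in the results was not tested.

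At the targeted gene, Ncoa2, IL4 moved 8 of 21 tested peaks in KO cells, 4 higher and 4 lower. Over all tested peaks 17.0% rose and 13.9% fell. Its promoter peak averaged 76.8 CPM in KO IL4 libraries and 87.6 CPM in KO vehicle libraries, with WT vehicle at 86.1 CPM. KO vehicle differed from WT vehicle at 2 of the 21 peaks, where 802 of all tested peaks (0.616%) did: 116.0 kb inside the gene the log2 fold change was -1.15 ± 0.16 (SE), and 49.7 kb before the TSS it was 2.96 ± 0.21. The labels do not say which exons are floxed, and accessibility does not measure the deletion or the protein, so the genotype rests on the labels.

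The feedback inhibitors of cytokine signalling held some of the firmest rises. Cish encodes CIS, a SOCS-box protein induced by STAT factors. At a peak 11.3 kb past the Cish TSS (chr9:107307539-107308418) the KO IL4 libraries had 22.1, 27.5, 29.6 and 29.9 CPM, against 2.98, 1.99, 3.40 and 3.30 CPM in KO vehicle libraries. All 4 IL4 libraries lay far above all 4 vehicle libraries, and the log2 fold change was 3.27 ± 0.14 (SE; edgeR adjusted p = 4.7e-36). The groups did not overlap at 26.8% of all tested peaks, and the leading peaks here and below were chosen by smallest p. Of the 5 tested Cish peaks 4 rose, and the fifth, 16.7 kb past the TSS, averaged 28.7 CPM with IL4 and 26.7 CPM with vehicle (log2 fold change 0.11 ± 0.08, adjusted p = 0.31 by edgeR). Socs1, an inhibitor of JAK kinases, had 10 of 18 peaks that rose and none that fell. Its leading peak, 85.1 kb past the TSS (chr16:10700298-10700585), had 5.75, 6.88, 9.03 and 8.13 CPM with IL4 and 1.12, 0.426, 0.785 and 0.825 CPM with vehicle, a log2 fold change of 3.32 ± 0.23. Socs3, the inhibitor best known downstream of IL6-type cytokines, is outside the 4 genes of this list with the smallest p and is named after its values were seen, because it ran the other way. It had 1 peak that rose and 10 that fell among 18. Socs6 rose by 1.58 ± 0.12 at its leading peak and Socs7 fell by 0.90 ± 0.13. In all, 27 of 78 peaks of the 7 measured genes rose and 16 fell, with a median log2 fold change of 0.10, where 18.1% of all 109671 peaks with a gene rose, 14.6% fell and the median was -0.02.

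Upstream, among the receptor, kinase and STAT genes, 23 of 139 peaks rose and 20 fell, with a median of -0.02 that became 0.02 when libraries were scaled by total counts. Over all peaks with a gene 18.1% rose and 14.6% fell. Jak2, a kinase of the cytokine receptor family, rose at a peak 14.6 kb before its TSS, with 6.14, 6.95, 7.08 and 8.84 CPM in KO IL4 libraries and 1.62, 1.14, 1.18 and 2.02 CPM in KO vehicle libraries. Its groups did not overlap there, as at 26.8% of all tested peaks, and the log2 fold change was 2.29 ± 0.19. Irs2, the adaptor that links the IL4 receptor to PI3 kinase, rose by 1.99 ± 0.19 at a peak 41.5 kb before its TSS. Jak1 rose by 1.14 ± 0.16 at 11.6 kb before its TSS, and 7 of its 22 peaks rose. Ptpn6, the phosphatase SHP-1, fell by 0.74 ± 0.08 at a peak inside the gene, 3.1 kb from the TSS. Stat6 and Il4ra, named as the core of the pathway after their values were seen, had lower promoter peaks: Stat6 averaged 46.2 CPM with IL4 and 58.9 CPM with vehicle (-0.35 ± 0.06), and Il4ra 31.7 CPM with IL4 and 36.3 CPM with vehicle (-0.19 ± 0.07). Upstream of Il4ra, at 15.1 kb, a peak rose by 1.62 ± 0.25. No promoter peak of this list rose and 7 of 14 fell, where over all promoter peaks 5.75% rose and 35.8% fell (16.1% with loess offsets), with a median of -0.17.

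**Figure D1:**
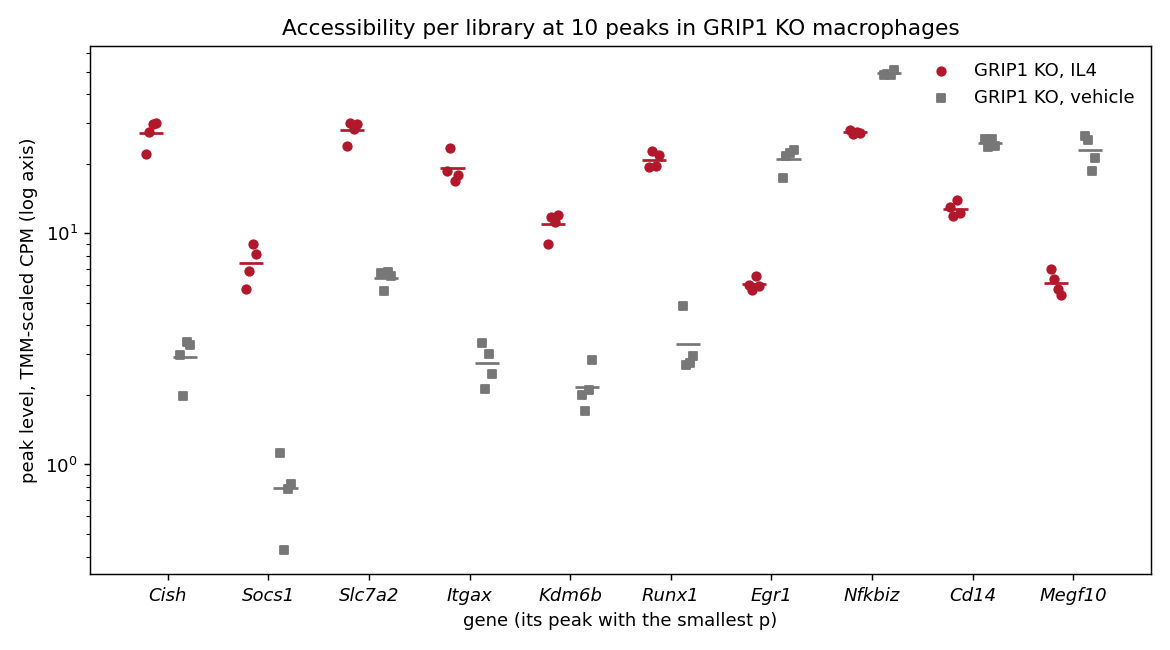
Level of the leading peak (smallest p) of 10 genes in each library, in TMM-scaled CPM on a log axis. Circles are the 4 KO IL4 libraries, squares the 4 KO vehicle libraries and bars the group means. Cish, Socs1, Slc7a2, Itgax, Kdm6b and Runx1 were higher with IL4, Egr1, Nfkbiz, Cd14 and Megf10 lower, and the groups do not overlap at any of the 10. Each peak was chosen by its p, and the groups do not overlap at 26.8% of all tested peaks.

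Transcription factors of alternative activation moved both ways. Among 388 peaks of 18 genes 97 rose and 66 fell, where 18.1% of all peaks with a gene rose and 14.6% fell. Of the 18 genes 14 had both, where 4306 of all 16605 genes with a tested peak did. The 16605 genes held 109671 peaks, so the 18 genes had more peaks each and with them more chances to have both. Kdm6b, the H3K27 demethylase that opens M2 genes, rose 25.1 kb before its TSS (chr11:69438551-69439038): IL4 libraries had 9.02, 11.7, 11.1 and 12 CPM and vehicle libraries 1.99, 1.70, 2.09 and 2.84 CPM (log2 fold change 2.36 ± 0.16). The IL4 libraries were several times higher with little spread. Irf4, which acts with Kdm6b in M2 polarisation, had 9.21, 12.9, 11.9 and 15.1 CPM with IL4 and 2.86, 2.84, 1.57 and 2.75 CPM with vehicle at 34.4 kb before its TSS (2.26 ± 0.16), and 10 of its 21 peaks rose. Mitf, a factor of the lysosome and of multinucleate macrophages, rose at 13 of 45 peaks and fell at 2, with a leading rise of 0.98 ± 0.07. Pparg, the fatty acid sensing nuclear receptor of alternative activation, is outside the leading 4 of this list and is named after its values were seen. It rose at 13 of 29 peaks and fell at 1, led by 1.78 ± 0.15 at 11.3 kb before a TSS. Egr1, an immediate early factor, was the leading gene of the list and fell: 5.95, 5.67, 6.55 and 5.94 CPM with IL4 and 17.3, 21.6, 22.2 and 23.0 CPM with vehicle at 5.7 kb before its TSS (-1.81 ± 0.11). All its vehicle libraries were above all its IL4 libraries, and 6 of its 10 peaks fell while 2 rose. Egr3 fell at 9 of 17 peaks and Egr2, which is needed for late IL4 enhancers in mouse macrophages, rose at 4 and fell at 5 of 19. These EGR family members were named after their values were seen.

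The effector genes of alternative activation had more rises than falls. The genes of this list, as of the others, were chosen with earlier results of these data known. Of 26 genes 25 had a peak that rose, where 8117 of all 16605 genes with a tested peak did, counts not matched for the number of tested peaks per gene. The exception, Ccl22, a chemokine gene, had 4 peaks with log2 fold changes of 0.05 to 0.64, none of them called. Among the list's 233 peaks 94 rose and 8 fell, with a median of 0.32, where 18.1% of all peaks with a gene rose and 14.6% fell. Of its 28 promoter peaks 16 rose and none fell. Over all tested promoter peaks the counts ran the other way, with 780 of 13569 (5.75%) rising and 4861 (35.8%) falling. Slc7a2 encodes the cationic amino acid transporter that brings arginine into the cell. At its promoter (chr8:40861648-40862944) the KO IL4 libraries had 23.9, 29.9, 28.2 and 29.8 CPM, and the KO vehicle libraries 6.71, 5.61, 6.80 and 6.51 CPM. The lowest IL4 library was more than 3-fold above the highest vehicle library, and the log2 fold change was 2.15 ± 0.10 (edgeR adjusted p = 1.1e-31). Of its 7 peaks 6 rose, by up to 3.66 ± 0.25 at 6.8 kb before the TSS.

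Itgax, the integrin CD11c, had 18.6, 23.3, 16.8 and 17.8 CPM with IL4 and 3.36, 2.13, 3.01 and 2.47 CPM with vehicle at 7.7 kb before its TSS (2.85 ± 0.14). Its promoter peak, which covers the STAT6-type match printed above, had 43.5, 45.2, 39.9 and 39.7 CPM with IL4 and 18.6, 16.8, 17.4 and 13.7 CPM with vehicle (1.35 ± 0.09). Both Itgax peaks were higher in every IL4 library than in any vehicle library. Atp6v0d2, a proton pump subunit found in fused macrophages and osteoclasts, had 20.4, 20.6, 19.5 and 20.6 CPM with IL4 and 4.10, 2.98, 2.75 and 2.93 CPM with vehicle at its promoter (2.68 ± 0.15). Spp1, the osteopontin gene, rose at 6 of 15 peaks and fell at 3, led by 3.43 ± 0.23 at 6.5 kb before the TSS. The textbook markers of the state were named for that reason, after their values were seen. Arg1, the arginase gene, rose at 5 of 12 peaks, with 23.6, 25.5, 32.0 and 27.1 CPM with IL4 and 10.9, 11.3, 13.7 and 8.80 CPM with vehicle near its start (1.29 ± 0.11). Chil3, the gene for the lectin Ym1, averaged 4.34 CPM with IL4 and 1.55 CPM with vehicle at its promoter (1.52 ± 0.22). Mrc1, the mannose receptor, rose at 5 of 12 peaks, the promoter among them (15.9 CPM with IL4 and 8.59 CPM with vehicle). Retnla, which encodes the secreted protein RELM alpha, stayed low in both groups at its promoter, at 0.959, 1.66, 1.15 and 1.41 CPM with IL4 and 0.373, 0.213, 0.131 and 0.367 CPM with vehicle, and was called (2.24 ± 0.43, edgeR adjusted p = 1.4e-05).

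**Figure D2:**
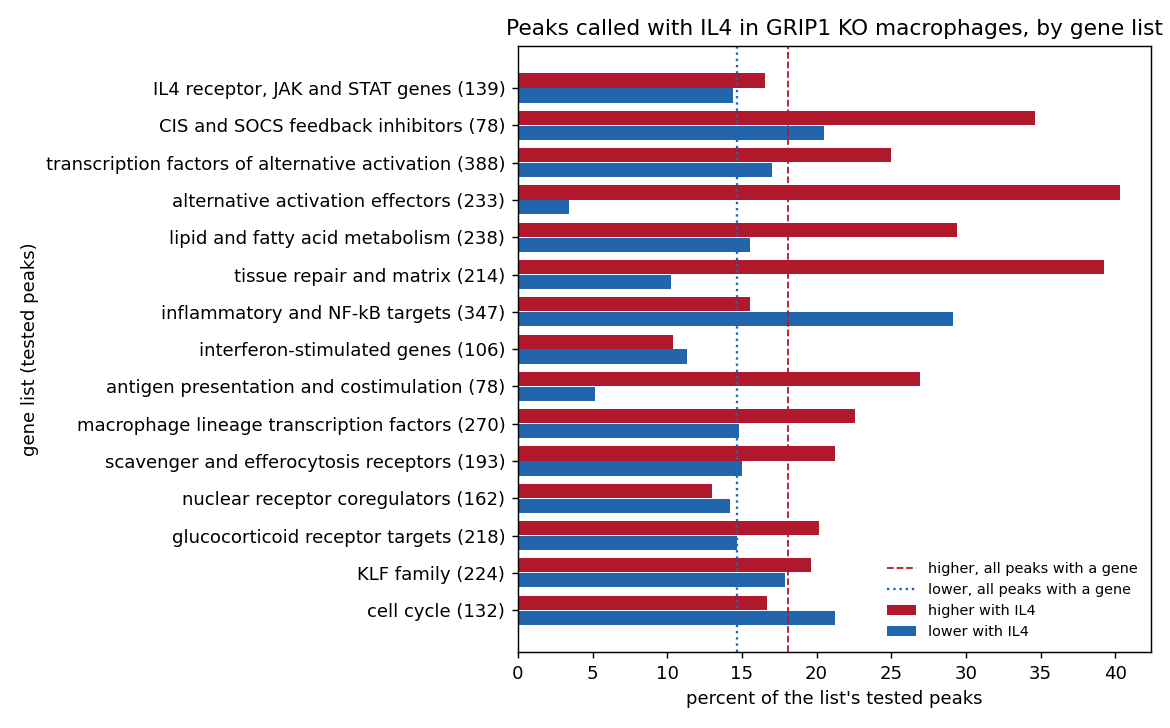
Percent of the tested peaks of each gene list that rose (upper bar) or fell (lower bar) with IL4 in KO macrophages, with the number of tested peaks in brackets and, as lines, the 18.1% and 14.6% of all peaks with a gene. Among the 15 lists drawn, the effectors of alternative activation have the highest share of rises (40.3%) and the lowest of falls (3.43%), and inflammatory genes the highest share of falls (29.1%). The lists were chosen with earlier results of these data known.

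Of 238 peaks of lipid and fatty acid genes 70 rose (29.4%) and 37 fell (15.5%), with a median of 0.11. Over all peaks with a gene 18.1% rose and 14.6% fell. Cd36, the scavenger receptor for fatty acids and oxidised LDL, rose at 16 of 36 peaks and fell at 1, led by a peak inside the gene with 14.5, 17.9, 12.3 and 13.7 CPM with IL4 and 5.72, 5.68, 4.71 and 5.50 CPM with vehicle (1.43 ± 0.14). Every IL4 library was above every vehicle library there. Cpt1a, the carnitine transferase that admits fatty acids to mitochondria, rose by 1.89 ± 0.19 and Acadm, a beta-oxidation enzyme, by 1.86 ± 0.20. Fabp5, a fatty acid carrier, fell by 0.94 ± 0.10 at 28.5 kb before its TSS, with 2 of its 14 peaks higher and 4 lower.

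Tissue repair and matrix genes rose at 84 of 214 peaks and fell at 22 (median 0.26), where 18.1% of all peaks with a gene rose and 14.6% fell. Mmp12, the macrophage elastase, rose at 13 of 13 tested peaks, by 0.48 to 2.26. Its leading peak, 13.9 kb before the TSS (chr9:7330289-7330788), had 16.9, 19.8, 22.6 and 18.5 CPM with IL4 and 7.09, 6.03, 7.59 and 6.32 CPM with vehicle. The groups did not overlap there, as at 26.8% of all tested peaks. Pdgfc, a growth factor gene, rose by 2.42 ± 0.18 at a peak 157.4 kb inside it, and Hbegf, an EGF receptor ligand, by 2.74 ± 0.23 at 20.7 kb past its TSS. For Hbegf the IL4 libraries spread from 4.77 to 9.59 CPM and the vehicle libraries from 0.550 to 1.57 CPM. Igf1, insulin-like growth factor 1, rose at 22 of 33 peaks and fell at none, with 0.91 ± 0.09 at its leading peak. Vegfa, Tgfb1, Grn, Mmp14 and Mmp2 had falling peaks only, and are named after their values were seen.

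The inflammatory and NF-kB targets were the list with the largest share of falls. Of 347 peaks 101 fell and 54 rose, with a median of -0.18, where 14.6% of all peaks with a gene fell and 18.1% rose. Of 38 promoter peaks 22 fell while 2 rose. As background, over all promoter peaks 5.75% rose and 35.8% fell (16.1% with loess offsets). Nfkbiz, the nuclear inhibitor that primes secondary response genes, had 28.0, 27.0, 27.3 and 27.2 CPM in KO IL4 libraries and 48.5, 49, 48.1 and 50.9 CPM in KO vehicle libraries at its promoter. Each group was tight and the gap wide, with a log2 fold change of -0.85 ± 0.08 (edgeR adjusted p = 2.1e-16). Cd14, the coreceptor for lipopolysaccharide, fell at 5 of 5 peaks. At 6.7 kb past its TSS it had 12.9, 11.9, 14.0 and 12.2 CPM with IL4 and 25.6, 23.7, 25.5 and 23.7 CPM with vehicle (-0.95 ± 0.09). Not every gene of the list followed. Nfkb1, the p50 subunit of NF-kB, rose at 10 of 37 peaks and fell at 3, led by 2.48 ± 0.21 at 47.4 kb past its TSS, and Tlr4, the lipopolysaccharide receptor, rose at 9 of 27 and fell at 3 (1.08 ± 0.11 at its leading peak). Il1b, Nlrp3, Ptgs2, Il6 and Tnf, named after their values were seen, ran lower: Il1b had 5 peaks that fell and 1 that rose among 10, and the other 4 genes had falling peaks and no rising one.

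Interferon-stimulated genes had 11 rises and 12 falls among 106 peaks (11 and 8 when scaled by total counts). Of 18 genes 7 had a peak that rose, 7 a peak that fell, 4 both and 8 no called peak. Of all 16605 genes with a tested peak 8117 had a rise, 8406 a fall and 4306 both. These gene counts were not matched for the number of tested peaks per gene. Among the leading peaks, Mx1 rose by 1.39 ± 0.14 and Rsad2 by 1.13 ± 0.13, both genes of antiviral proteins, while Irf1, a factor of the interferon response, fell by 0.56 ± 0.08. Antigen presentation and costimulation genes rose at 21 of 78 peaks and fell at 4. For both lists the background is all peaks with a gene, of which 18.1% rose and 14.6% fell. Ctss, the protease that trims the invariant chain, rose by 0.69 ± 0.09. Ciita, the master activator of MHC class II genes, had 11.5, 11.6, 11.3 and 10.6 CPM with IL4 and 6.71, 6.17, 6.28 and 5.77 CPM with vehicle near its start (0.86 ± 0.12). Its groups did not overlap there, as at 26.8% of all tested peaks, and 5 of its 12 peaks rose. Cd86, a costimulatory ligand, rose by 1.12 ± 0.18 inside the gene, and H2-DMb2, part of the peptide loading machinery of class II, by 1.37 ± 0.21.

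Among lineage transcription factor genes, Runx1, a factor of blood cell identity, had 19.3, 22.7, 19.6 and 21.9 CPM with IL4 and 4.85, 2.70, 2.75 and 2.93 CPM with vehicle at 26.3 kb before its TSS (chr16:92852020-92852770; 2.70 ± 0.14, edgeR adjusted p = 1.6e-30), and 15 of its 56 peaks rose while 5 fell. Vehicle replicate 1 was the highest vehicle library there and still far below the IL4 libraries. Zeb2, needed to keep tissue macrophage identity, rose by 3.22 ± 0.24 at 37.5 kb before its TSS and at 15 of 38 peaks. Irf8 rose by 1.54 ± 0.17 at 31.9 kb before its TSS, with 7 of 27 peaks higher and 5 lower, and Runx3 by 0.81 ± 0.10 at 40.2 kb before its TSS. Over the list 61 of 270 peaks rose (22.6%) and 40 fell (14.8%), with a median of 0.00 that changed sign with DESeq2 size factors. Over all peaks with a gene 18.1% rose and 14.6% fell. Spi1, the gene for PU.1, had lower peaks and no higher one, and was named after its values were seen.

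Scavenger and efferocytosis receptors rose at 41 of 193 peaks (21.2%) and fell at 29 (15.0%), shares near the 18.1% and 14.6% of all peaks with a gene. Mertk, the receptor tyrosine kinase that engulfs dying cells, had 7.19, 8.46, 8.85 and 7.90 CPM with IL4 and 2.73, 3.26, 2.62 and 2.93 CPM with vehicle at its start (1.46 ± 0.15), and rose at 10 of 19 peaks without a fall. Scarb1, the HDL receptor, rose by 1.49 ± 0.13 inside the gene, and Msr1, scavenger receptor A, by 2.49 ± 0.26. Megf10, an engulfment receptor, went the other way, with 7, 6.35, 5.75 and 5.40 CPM with IL4 and 26.5, 25.3, 18.6 and 21.1 CPM with vehicle at 25.0 kb inside it (-1.91 ± 0.14). Its vehicle libraries varied more than its IL4 libraries but none came near them.

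The gene groups tied to GRIP1 by its known partners had shares of calls near those of all peaks with a gene (18.1% higher, 14.6% lower). Nuclear receptor coregulators rose at 21 of 162 peaks and fell at 23 (24 and 17 with loess offsets, which remove any trend with peak level), among the rises Ncoa3 (1.34 ± 0.16), another p160 coactivator, and Ncoa2 itself (1.60 ± 0.21 at 72.6 kb inside the gene). Nrip1, a corepressor, fell by 1.19 ± 0.16 at its leading peak. Glucocorticoid receptor targets rose at 44 of 218 peaks and fell at 32. Cebpd, a C/EBP factor gene, rose by 2.51 ± 0.28 at 27.8 kb past its TSS. Per2, of the circadian clock, rose by 1.19 ± 0.11. Klf9, a direct target of the receptor, had 55.8, 66.8, 61.1 and 60.5 CPM with IL4 and 34.6, 32.8, 38.2 and 34.5 CPM with vehicle (0.81 ± 0.08). The KLF family rose at 44 of 224 peaks and fell at 40, with a median of -0.02 that became 0.02 with total counts. Klf4, a STAT6 partner in alternative activation, rose at 19 of 56 peaks and fell at 7, led by 1.44 ± 0.11 at a peak assigned to it from 279.5 kb before its TSS. Klf7 rose at 6 of 24 peaks and fell at 7, with a leading rise of 1.44 ± 0.12, and Klf6 rose by 0.79 ± 0.09 at its leading peak. Cell cycle genes rose at 22 of 132 peaks and fell at 28, and 11 of their 16 promoter peaks fell while 1 rose, against 35.8% falling and 5.75% rising over all promoter peaks. Ccnd1, cyclin D1, rose by 2.02 ± 0.21 at a peak 95.1 kb before its TSS, and Cdk6, its kinase partner, by 1.35 ± 0.17. Ccnd3, cyclin D3, rose by 1.85 ± 0.25 inside the gene, and Rb1, the retinoblastoma gene, fell by 0.57 ± 0.08 at its promoter.

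The 12 largest rises had low levels with vehicle, which a ranking by fold change over vehicle tends to select. Peaks were taken with an assigned gene, a mean of at least 2 CPM in the higher group and no overlap between groups, which holds at 26.8% of tested peaks. The largest lay inside Smurf1, a ubiquitin ligase gene, 3.8 kb from its TSS (chr5:144961842-144962118), with 5.47, 9.29, 7.61 and 7.27 CPM with IL4 and 0.373, 0.213, 0.523 and 0.275 CPM with vehicle, a log2 fold change of 4.50 ± 0.28. Vehicle libraries were near the floor of detection there, so the size of the fold is less certain than its direction. The next lay 83.8 kb before Htr1b, a serotonin receptor gene (4.05 ± 0.30), and 94.3 kb before Fam46a (3.99 ± 0.35). Dut, the dUTPase gene, had 9.30, 14.3, 12.2 and 14.3 CPM with IL4 and 0.622, 0.568, 0.916 and 1.28 CPM with vehicle at 21.4 kb past its TSS (chr2:125268618-125269207; 3.90 ± 0.20). Edn1, the endothelin 1 gene, rose by 3.76 ± 0.23 at 9.3 kb before its TSS. Of the 12 nearest genes 4 were microRNA genes (Mir1903, Mir3961, Mir6905 and Mir511), with log2 fold changes of 3.70 to 3.92. Mir511 lies within Mrc1, and the peak, chr2:14275866-14276191, had 4.70, 6.88, 8.41 and 7.20 CPM with IL4 and 0.249, 0.710, 0.523 and 0.458 CPM with vehicle. The other members of the 12 lay at Gsg1, Gm19619 and Cox7c (3.71 to 3.74).

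The 12 largest falls were smaller and noisier, from -2.72 ± 0.47 to -2.32 ± 0.37. Pitpnc1, a phosphatidylinositol transfer protein gene, had 0.480, 0.604, 0.708 and 0.469 CPM with IL4 and 1.37, 3.97, 4.05 and 5.32 CPM with vehicle at 33.8 kb inside it (edgeR adjusted p = 0.00011). Vehicle replicate 1 was well below the other vehicle libraries. At Gtdc1 the IL4 libraries had 2.21, 1.66, 2.48 and 0.939 CPM and the vehicle libraries 8.70, 12.5, 10.2 and 14.0 CPM (-2.69 ± 0.41). Itgal, the integrin chain CD11a, had 0.959, 0.529, 0.796 and 0.156 CPM with IL4 and 2.73, 3.97, 2.22 and 3.57 CPM with vehicle at 3.0 kb before its TSS (-2.45 ± 0.31). The others lay at Gm1720, 1700016G22Rik, Camk1d, Uts2b, 1700025G04Rik, Prox2, Arhgef6, Fam43a and Pid1. KO dexamethasone libraries share the vehicle libraries with this comparison, and their log2 fold changes at the same peaks were -2.46 at Pitpnc1, -2.39 at Gtdc1, -1.50 at Itgal and -2.24 at Arhgef6, whose IL4 value was -2.36.

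Genes with many changed peaks were counted next, with no expected number per gene computed. The 9257 peaks at least 2-fold higher (7.12% of those tested) gave 4646 genes at least 1 such peak and 218 genes at least 5, and the 1392 peaks at least 2-fold lower (1.07%) gave 937 genes at least 1 and 6 genes at least 5. Fam198b, which encodes a Golgi membrane protein, led with 15 of 29 peaks at least 2-fold higher, and 22 higher in all with none lower. The 15 lay from 14.2 kb before to 167.1 kb past its TSS and summed to 77.4 to 92.7 CPM per library with IL4 and 27.5 to 31.2 CPM with vehicle. The sums of the 2 groups did not overlap, which the choice of these peaks as higher in the same libraries largely fixed in advance. P2ry1, an ADP receptor gene, had 13 of 24, Xylt1, a proteoglycan synthesis enzyme, 13 of 41 and Fndc3a 12 of 48. Igf1 had 11 of 33 and Trpm3, an ion channel gene, 11 of 20. Ang6, of the angiogenin ribonuclease family, had 10 of 12 peaks at least 2-fold higher and all 12 called, by 3.58 at most. Gm20740 (10 of 31), Hivep3 (10 of 47) and Fyn, a Src family kinase gene (9 of 29), followed. The number of peaks a gene can hold depends on its length and on the distance to its neighbours.

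Among falls, Gm1720 had 9 of 16 peaks at least 2-fold lower, summing to 15.1 to 19.4 CPM with IL4 and 36.2 to 50.4 CPM with vehicle. Nfkbiz had 6 of 30 at least 2-fold lower, and 18 lower in all with 1 higher. The 6 summed to 11.4 to 13.2 CPM with IL4 and 29.3 to 33.6 CPM with vehicle. Both sets of peaks were chosen as lower in these same libraries, which largely fixed the gap between their sums in advance. Basp1, Gm1653 and Susd1 had 5 each.

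**Figure D3:**
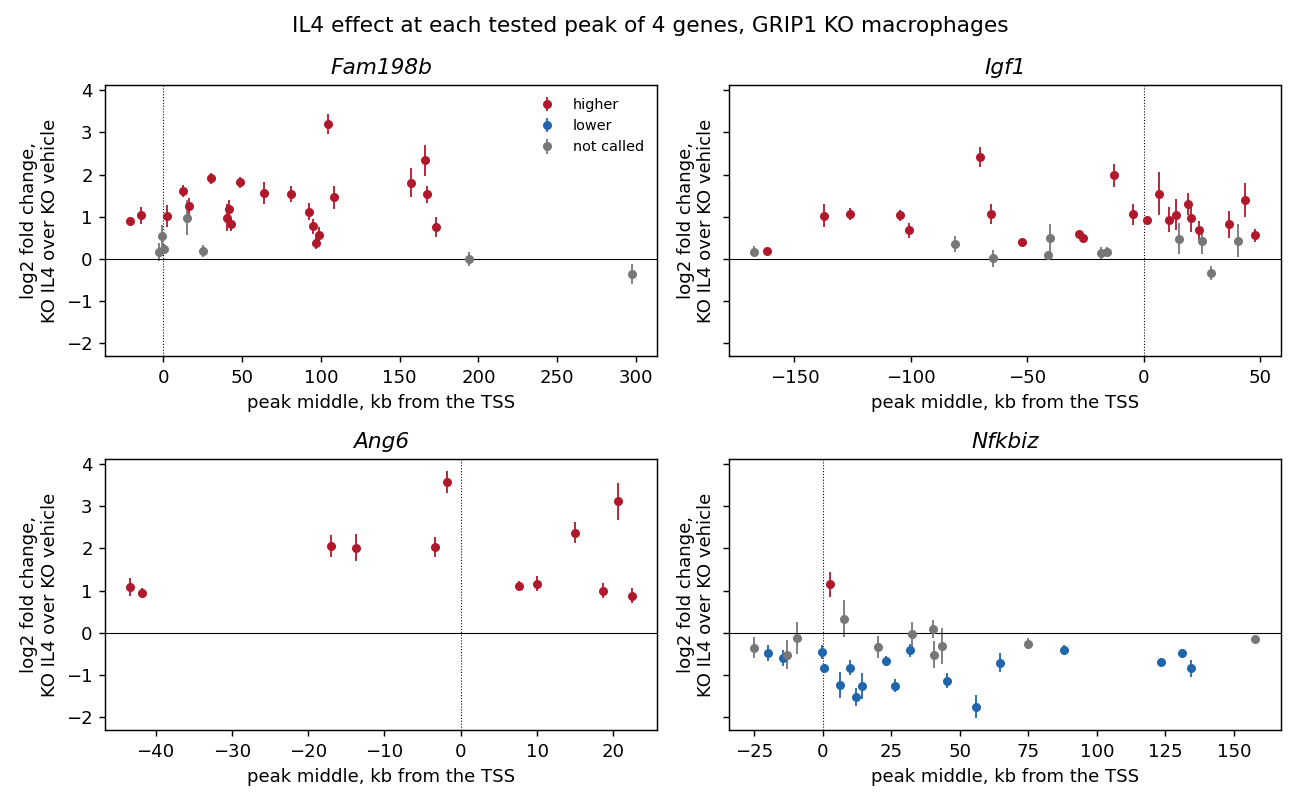
IL4 effect (log2 fold change, KO IL4 over KO vehicle, with its SE as the bar) at each tested peak of 4 genes against the distance of the peak's middle from the TSS in kb, positive in the direction of transcription. Called rises make up 22 of 29 peaks at Fam198b, 22 of 33 at Igf1 and 12 of 12 at Ang6, and called falls 18 of 30 at Nfkbiz.

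Direction differed with location. Within 1 kb of a TSS 5.75% of 13569 peaks rose and 35.8% fell, with a median of -0.17. From 1 to 10 kb 17.5% rose and 13.5% fell, from 10 to 50 kb 18.8% rose and 10.7% fell, from 50 to 100 kb 26.9% rose and 12% fell, and beyond 100 kb 28.0% rose and 10.9% fell. Peaks with no assigned gene rose at 11.4% and fell at 10.0%. Only peaks of the authors' annotated table could be placed beyond 50 kb, and that table holds no peak of 1000 bases or more, so the last 2 bins hold shorter peaks. On annotated peaks alone the shares rising were 7.26% within 1 kb, 21.1% from 1 to 10 kb and 23.1% from 10 to 50 kb, which narrows the step at 50 kb, and those falling were 33.6%, 15.9% and 13%. Of all peaks that rose 3.52% lay within 1 kb of a TSS (exact binomial 95% interval, 3.28 to 3.77), and of all that fell 26.8% did (26.2 to 27.5), where 10.4% of tested peaks did. Falls at promoters were shallow: 38 of the 4861 reached 2-fold, while 222 of the 780 rises did. Among falls of at least 2-fold 2.73% lay within 1 kb, below the 10.4% of tested peaks, so the excess of falls at promoters held for small changes and turned round for large ones. Loess offsets, which take out a trend with level in each library, left 16.1% of promoter peaks lower and 8.54% higher, and put 14.8% of falls and 5.44% of rises within 1 kb, so the promoter share of falls depended on the scaling.

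Starting level went with direction as well. Peaks that rose had a median of 2.21 CPM in WT vehicle cells, which took no part in the comparison, peaks that fell 12.5 CPM and all tested peaks 2.71 CPM. In the lowest 10% of peaks by that level 29.3% rose and 0.907% fell, and in the highest 10% 5.91% rose and 51.1% fell. The lowest 10% had at most 0.782 CPM in WT vehicle cells. Such peaks could pass the low-count filter through other groups, IL4 ones among them, which favours rises there, so their shares are partly built in. A fall is harder to call at a low count. Within the highest 10% 58.6% of promoter peaks and 44.3% of the other peaks fell, so promoters differed from other peaks there by less than over all levels. With the 10 equal groups by level numbered from the lowest, 37.02% of promoter peaks and 27.37% of the others fell in group 9. In group 8 the shares were near each other, at 19.36% and 18.96%. In each of groups 1 to 7 promoter peaks fell less often than the others, with 6.28% and 9.37% in group 6. The excess of falls at promoters was thus seen at high levels only. Peaks that fell were longer, with a median of 728 bases, than those that rose (439) or all tested (435). Among annotated peaks more than 1 kb from a TSS, FANTOM-marked enhancers rose at 23.1% and fell at 21.2%, and unmarked peaks rose at 23.7% and fell at 12.1%. Beyond 1 kb, 19.8% of peaks inside a gene rose and 11% fell, and 19.9% of those outside rose and 12.2% fell.

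**Figure D4:**
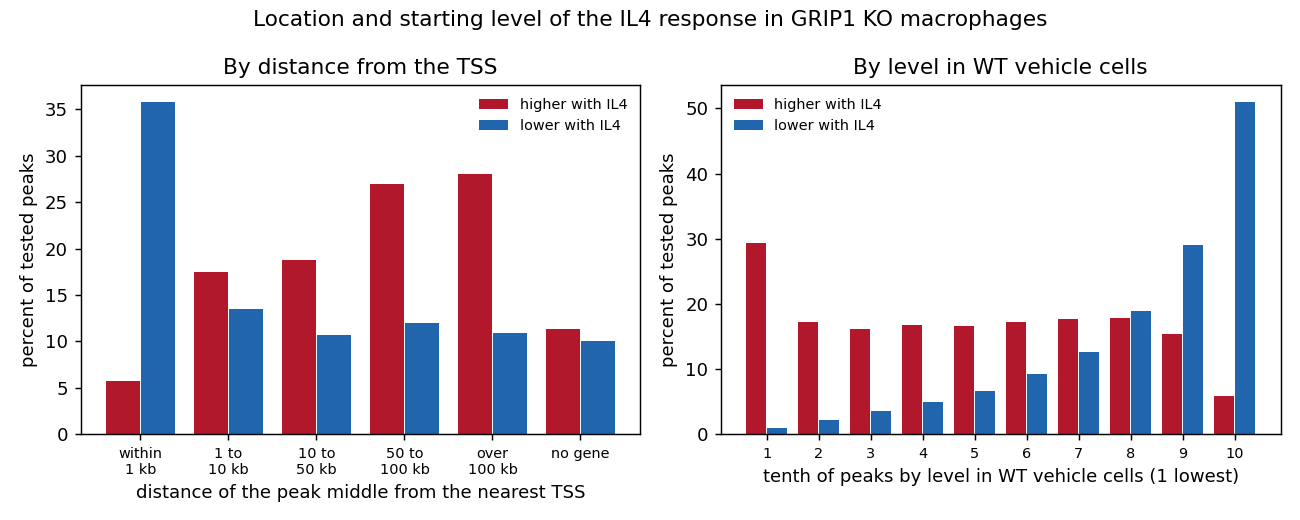
Percent of tested peaks that rose or fell with IL4 in KO macrophages, by distance from the nearest TSS (left) and by level in WT vehicle cells in 10 equal groups (right). Falls are most frequent within 1 kb (35.8%) and in the highest group (51.1%), rises beyond 100 kb (28.0%) and in the lowest group (29.3%). Peaks of the lowest group could pass the low-count filter through IL4 libraries, which favours rises there.

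Promoter and distal peaks of a gene were set side by side. Of 704 genes whose leading promoter peak rose, 70.2% had a distal peak that rose, against 48.2% of 4659 genes whose promoter fell and 48.1% of 6296 whose promoter was not called. A distal peak that fell was present for 29.4%, 46.5% and 32.3% of these genes, in the same order. The number of distal peaks per gene was not matched. The firmest promoter rises after Slc7a2 lay at Klrb1a, a gene for a receptor of the NK cell lectin family, with 17.4, 19.0, 13.5 and 13.5 CPM with IL4 and 2.36, 2.55, 2.35 and 1.65 CPM with vehicle (2.82 ± 0.16). Of the 4 tested promoter peaks of T and NK cell markers 2 also rose, that of Klrb1c among them (19.0 CPM with IL4 and 10.6 CPM with vehicle), while no promoter peak was tested for 8 of that list's 11 genes, and the part of such cells in the rise was not tested. Tmem26, which carries the pair of STAT6-type matches, had 20.7, 23.7, 23.6 and 23.7 CPM with IL4 and 8.33, 7.59, 9.29 and 6.87 CPM with vehicle (1.54 ± 0.11), and Lgi4 rose by 1.43 ± 0.10. Both were higher in each IL4 library than in any vehicle library.

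The firmest promoter falls were of about 2-fold. Bnip3, a mitophagy receptor gene and a known hypoxia target, had 37.6, 34.8, 36.7 and 36.1 CPM with IL4 and 65.9, 71.7, 65.5 and 78.6 CPM with vehicle (-0.96 ± 0.07). Icosl, the ligand of the T cell costimulator ICOS, had 9.97, 7.93, 10.2 and 9.62 CPM with IL4 and 19.4, 22.2, 22 and 24.1 CPM with vehicle (-1.23 ± 0.10). Phf19, a subunit of a Polycomb complex, had 10.6, 10.5, 10.9 and 10.1 CPM with IL4 and 24.0, 24.7, 20.3 and 25.5 CPM with vehicle (-1.18 ± 0.10), although its window holds a STAT6-type match. Nab1, with the pair of EGR matches, had 18.5, 17.8, 18.7 and 21.4 CPM with IL4 and 34.8, 37.0, 35.3 and 41.0 CPM with vehicle (-0.96 ± 0.08). In none of these did the groups overlap, and over all tested peaks 26.8% had no overlap. Trim59, a ubiquitin ligase gene, fell by 0.92 ± 0.08. Dexamethasone, against the same KO vehicle libraries, gave log2 fold changes of 0.03 at Bnip3, 0.30 at Icosl, -0.02 at Phf19 and -0.03 at Nab1.

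The purpose of the genotype was to show what GRIP1 contributes, and the IL4 effect in KO was therefore set against that in WT, which shares no library with it. Calls in WT were 25116 higher (19.3%) and 20942 lower (16.1%), or 35.4% of tested peaks. In KO 79.6% of calls were also called in the same direction in WT, and 69.6% of WT calls were called in KO, 32049 peaks in all, while 3 peaks were called in opposite directions. A difference between the effects, tested by the interaction term, was called at 3 of 130103 peaks (0.00231%; edgeR, adjusted p below 0.05), with 5336 at an unadjusted p below 0.05 (4.10%) and 2 called by DESeq2. Of the 8221 peaks called in KO and not in WT the interaction was called at 1. At the 46058 peaks called in WT 98.0% had the same sign in KO, and the slope of the KO effect on the WT effect was 0.79, a description across peaks that favours WT since it chose them. Where both genotypes chose the peaks equally, by the sum of their effects, it was 0.84. There the rises had a median of 0.70 in KO and 0.77 in WT and were smaller in KO at 61.1% of peaks, and the falls had a median of -0.36 in KO and -0.39 in WT. On peaks called in KO the slope was 0.90, rises had a median of 0.89 in both genotypes, and 49.9% of the peaks had the smaller effect in KO. The reverse slope, of the WT effect on the KO effect, was 1.10 on peaks called in WT. It was 1.04 on peaks chosen by the sum and 0.98 on peaks called in KO. The slopes and shares thus moved with which genotype chose the peaks, and the slopes also with which effect was fitted on which.

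The difference with the smallest p lay at a peak with no assigned gene, chr9:63927777-63928824. It had 8.34, 12.2, 11.1 and 10.2 CPM in KO IL4 libraries and 3.85, 2.98, 3.79 and 3.76 CPM in KO vehicle libraries, and it averaged 2.87 ± 0.62 CPM in WT IL4 and 3.16 ± 0.46 CPM in WT vehicle (SD, n = 4 each). The IL4 effect was 1.57 ± 0.15 (SE) in KO and -0.18 in WT, a difference of 1.75 ± 0.25 (edgeR adjusted p = 8.5e-05). KO vehicle over WT vehicle had a log2 fold change of 0.16 there, which was not called. At a peak inside Ldlrad4 the KO effect was -0.13 and the WT effect 0.71 (difference -0.84 ± 0.15, edgeR adjusted p = 0.012). At a peak 88.8 kb from 1700020M21Rik the KO effect was 0.19 and the WT effect 0.99 (difference -0.80 ± 0.15, edgeR adjusted p = 0.023), and there KO vehicle already averaged 31.7 CPM against 4.69 CPM in WT vehicle. The next by p, at Mcm3 (1.5 in KO and -0.03 in WT) and at Nrg4 (0.59 in KO and 2.37 in WT), did not pass, with edgeR adjusted p = 0.06 and 0.086. Nor did the other 8 of the 12 with the smallest p (Zfp462, Glis3, Omp, Isoc1 and Olfr140, with a higher log2 effect in KO than in WT, and Ppp2r1b, Angpt2 and Ankfy1, with a lower one), whose differences (KO minus WT) lay between -1.68 and 2.13 with edgeR adjusted p of 0.11 to 0.99. Of these 8, KO vehicle already differed from WT vehicle at Omp (log2 fold change 2.12), Olfr140 (1.47) and Ppp2r1b (1.01) and was not called at the others. The peaks at 1700020M21Rik, Nrg4 and Ppp2r1b and the one with no assigned gene lie on chromosome 9, which holds 5.45% of tested peaks. Leaving out KO IL4 replicate 1 or KO vehicle replicate 1 left 1 peak called for the interaction each, and leaving out WT IL4 replicate 1 gave 5.

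**Figure D5:**
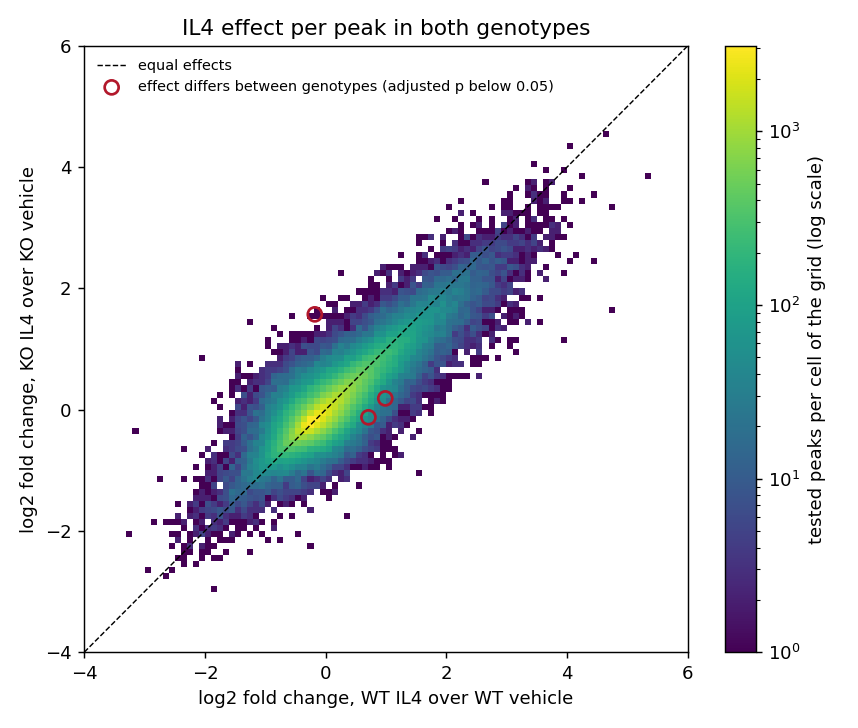
IL4 effect of each of the 130103 tested peaks in KO macrophages (vertical) against that in WT macrophages (horizontal), both as log2 fold change over vehicle, as the number of peaks in each cell of a grid with steps of 0.1. Peaks spread around the line of equal effects, and circles mark the 3 peaks whose effect differed between genotypes.

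At none of the leading peaks of the gene lists was the interaction called. In WT the log2 fold change was 3.38 at Cish, against 3.27 in KO. It was 2.05 at the Slc7a2 promoter, where KO had 2.15, and -1.87 at Egr1, where KO had -1.81. The Mir3961 peak, 326.0 kb away from its nearest gene, had 3.87 in KO and 5.30 in WT, and its interaction had an adjusted p of 1 in edgeR. For the effectors of alternative activation the median over peaks was 0.32 in KO and 0.36 in WT, for inflammatory targets -0.18 in KO and -0.15 in WT, and for repair genes 0.26 in KO and 0.25 in WT. The 2 comparisons use different libraries, and a p that misses the threshold does not show equal effects. The median SE of a single effect was 0.20 on the log2 scale, and a difference between 2 effects carries the error of both. In simulated counts with changes planted at few peaks, 41.8% of 67 planted 2-fold differences between genotypes were called. Of 66 planted 3-fold differences 60.6% were called, so differences of 2-fold and more could be missed. The 15 Fam198b peaks chosen as at least 2-fold higher in KO had a median of 1.54 in KO and 1.56 in WT, and all 15 were called in WT.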

How the data were processed

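Open chromatin was measured by paired-end 50-bp ATAC-seq in 24 libraries, 4 for each of 6 groups. Counts per peak were deposited by the authors as 1 table of raw, whole-number counts for 144411 peaks, with no normalization. A second deposited table of the authors' own comparisons holds log2 fold changes and adjusted p-values for 71942 peaks, with the nearest gene. On the peaks shared, the slope of the authors' deposited log2 values on the effects computed here was 1.00. Bowtie2, MACS2, featureCounts, fastp, SAMtools and edgeR, with the build mm10, stand in the submitters' processing notes without roles. Whether peaks were called on pooled libraries is not stated there.

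From the counts, edgeR 4.0.16 (R 4.3.3) was run with TMM scaling, its low-count filter by group and the robust quasi-likelihood F test, in 1 fit over 24 libraries, which share the estimate of spread. P-values were Benjamini-Hochberg adjusted over 130103 peaks and called below 0.05. Levels are TMM-scaled CPM, and SE is the log2 fold change divided by the root of F. For peaks outside the authors' annotated table the nearest listed TSS within 50 kb was used. Distances are from peak middle to TSS. Counting intervals cover counting error only. The procedure was tested on simulated data.

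Named were the 12 largest called rises and falls (1 per gene, at least 2 CPM in the higher group, no overlap), the 4 genes of each list with the smallest p, the 10 and 5 genes with most 2-fold higher and lower peaks, the 6 smallest interaction p in each direction, Ncoa2, and the 6 promoter peaks with the smallest p in each direction. Of the 91 peaks of the gene lists and top ranks, 2 are not reported here. Members and lists were chosen with earlier results of these data known. Alternatives were other scalings, filters, DESeq2 1.42.0, fewer libraries, a replicate block, other windows and leaving out each replicate. Replicate numbers were not taken as pairs and were not used in the main model.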

Additional observations from a re-analysis of the deposited data

Results flagged for a closer look

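Among 89 named peaks, 9 of 178 groups of 4 libraries held a library far from the other 3 by Dixon's test, which flags about 1 group in 20 by chance. KO IL4 replicate 1 was the low library in 5 of them. It had 20.7 CPM at Tmem26, where the others had 23.6 to 23.7. It had 6.23 CPM at Mir3961 (others 9.29 to 9.75), 3.93 CPM at H2-DMb2 (4.6 to 4.68), 18.5 CPM at Klf4 (23.7 to 24.2) and 14.1 CPM at Tlr4 (20.1 to 21.2). KO IL4 replicate 2 was low at Socs7 with 4.61 CPM (5.75 to 5.87). Among KO vehicle libraries, replicate 3 had 1.57 CPM at Irf4 (2.75 to 2.86), replicate 1 had 4.85 CPM at Runx1 (2.70 to 2.93) and replicate 2 had 0.710 CPM at Nfkb1 (1.37 to 1.44).

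The IL4 effect differed between KO and WT, by the interaction term in edgeR, at 3 peaks. The KO effect minus the WT effect was 1.75 at the peak with no assigned gene on chromosome 9, -0.836 at Ldlrad4 and -0.803 at 1700020M21Rik. The last 2 also differed between KO and WT vehicle libraries, with log2 fold changes of 0.43 (edgeR adjusted p = 0.033) and 2.73 (edgeR adjusted p = 3.7e-38).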

How the results depend on the processing

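All 91 named peaks kept their call and direction under each alternative that measured them (72 were measured with a mean of at least 30 counts). Rises and falls were 18439 and 14883 with the DESeq2 test and 24042 and 14808 with total counts. A mean of at least 30 counts gave 11015 falls and a slope of KO on WT of 0.854. Requiring 2-fold left 9257 rises and 1392 falls, with 2.40% and 2.73% of them within 1 kb of a TSS. Loess offsets put 5.44% of rises and 14.8% of falls there, total counts 3.82% of rises, a 0.5 kb window 2.52% and 24.6%, a 5 kb window 14.3% and 38.1%, and annotated peaks alone 3.19% and 21.1%. In the highest 10% of WT vehicle level, an alternative chosen after seeing the data, 54.0% of falls lay there. The slope was 0.840 with peaks chosen by the sum of effects and 0.903 with KO-called peaks, also chosen after seeing the data. Peaks differing between genotypes numbered 5 with the 16 IL4 and vehicle libraries alone. The cause of these changes was not tested.

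Leaving out each replicate gave 18883 to 21175 rises and 14254 to 17671 falls, 3.38% to 3.61% of rises and 25.3% to 28.8% of falls within 1 kb, 1 to 5 peaks differing between genotypes and slopes of 0.763 to 0.815, and 91 named peaks in every case. With group means removed, same-numbered IL4 and vehicle libraries correlated at 0.107, 0.0594, 0.0443 and 0.0907 in KO. In WT these correlations were 0.14, 0.0535, 0.0711 and 0.0785. In both genotypes every library correlated best with its own number, a hint of pairing from the data. The correlations were low, and the numbers were not taken as pairs in the main fit. The replicate block gave 22605 rises, 18831 falls and 5 peaks differing between genotypes.

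Peaks held a median of 22 to 40 counts per KO library used, which limits small changes at weak peaks.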
